A study of Mus musculus with 6 samples.

Results

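Intermediate filaments are the rope-like part of the cytoskeleton, and neural cells change the set of filament genes they use as they mature. The genes described here are 8 intermediate filament genes of the neural lineage and Plec, a linker that ties filaments to other structures. They are Gfap, Vim, Nes, Synm, Ina, Nefl, Nefm, Nefh and Plec, 9 of the 19937 genes with a value of their own on the arrays. They were picked by name. For a gene with several transcript clusters (groups of probes covering 1 transcribed region), the brightest cluster, by its mean over the 6 arrays, was used, a choice that arose only for Ina. The family was put together with the higher Gfap level in 1 group already known, so its values describe the arrays and are no independent evidence.

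The arrays measured RNA of primary neurospheres, the floating colonies that precursor cells form in culture. All 6 samples are labelled as small neurospheres, so the material was a size class. All neurospheres came from hippocampal tissue of adult male C57BL/6J mice, 8 to 12 weeks old, and grew in neurosphere medium with EGF and bFGF until day 14. The medium of 3 samples held norepinephrine at 10 µM (N), and that of the other 3 samples held potassium chloride at 15 mM (K). No untreated neurospheres are among the arrays, so a difference between N and K does not show which treatment moved a gene. How many mice stood behind 1 replicate is not given in the sources used here.

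Gfap and Vim are type III filament proteins that assemble into the filaments of glia. Gfap is the classical marker of astrocytes and is also made by radial glia-like stem cells of the adult hippocampus, while Vim is made by precursor cells, immature astrocytes and many cells outside the nervous system. Nes marks neural stem and precursor cells and is lost as they differentiate, and Synm joins filaments of the other proteins. The neurofilament genes Nefl, Nefm and Nefh and the alpha-internexin gene Ina encode the filaments of neurons, with Ina used early in development.

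Values are log2 values from the robust multi-array average (RMA) method, so 1 unit is a doubling, and log2FC is N minus K. Array medians lay between 6.30 and 6.40. The span from the 10th to the 90th percentile was 4.894 on K replicate 1 and 4.846 on K replicate 3. On the other arrays it lay between 5.068 and 5.135. Across clusters, K replicate 3 was the array least like its group (mean r = 0.948). K replicates 1 and 2 were at least as close to the N arrays (mean r = 0.955 and 0.969) as to their own group (mean r = 0.954 each). These correlations are across clusters, which are not independent replicates. The labels name neurospheres and no cell type. How far the neurospheres held precursor cells can be read only roughly from levels, since probes of different genes differ in brightness. Against the median over all clusters, 6.34, the precursor gene Sox2 had high means (10.16 with N and 9.90 with K), but the precursor gene Prom1 did not (6.16 and 5.76). Mki67, listed with the precursor markers but made by dividing cells of any type, had high means too (9.90 and 9.96). Among markers of other lineages the neuronal gene Map2 (10.84 and 11.17) and the oligodendrocyte lineage gene Olig2 (9.45 and 9.65) were also high, and the neuroblast gene Dcx was low (5.44 and 5.51). Of 8 microglial markers 7 had means below that median, as did all 6 endothelial markers. Only 4 of 8 pericyte and fibroblast markers, 3 of 6 ependymal markers and 2 of 6 skeletal muscle markers did. A level against this median therefore does not show whether a cell type was present.

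Of the 9 genes 1, Gfap, passed the test in limma (adjusted p under 0.05 over all genes), where 0.155% of all genes passed, 0.120% with N higher and 0.0351% with K higher. Gfap alone also had a log2FC over 1 in size with an unadjusted P under 0.05, as did 0.492% of all genes. The 3 N arrays lay entirely above the 3 K arrays for Gfap and Vim and entirely below them for Nes, and the groups overlapped for the other 6 genes. Over all genes, 13.3% had groups that did not overlap, 5.78% with N above and 7.55% with N below. An unadjusted P under 0.05 was reached by 5 of the 9 genes, against 8.54% of all genes. Of these Gfap, Vim, Ina and Nefl were higher with N, as were 4.64% of all genes, and Nes was higher with K, as were 3.89%. The log2FC was positive for 6 of the 9 genes and for 43.0% of all genes, and its median was 0.33 over the 9 genes and -0.03 over all genes. Without K replicate 3 the log2FC was 1.81 for Gfap, 0.42 for Vim and -0.53 for Nes, Gfap no longer passed (adjusted p = 0.0611 in limma), and the genes passing over the whole array went from 31 to 9.

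**Figure D1:**
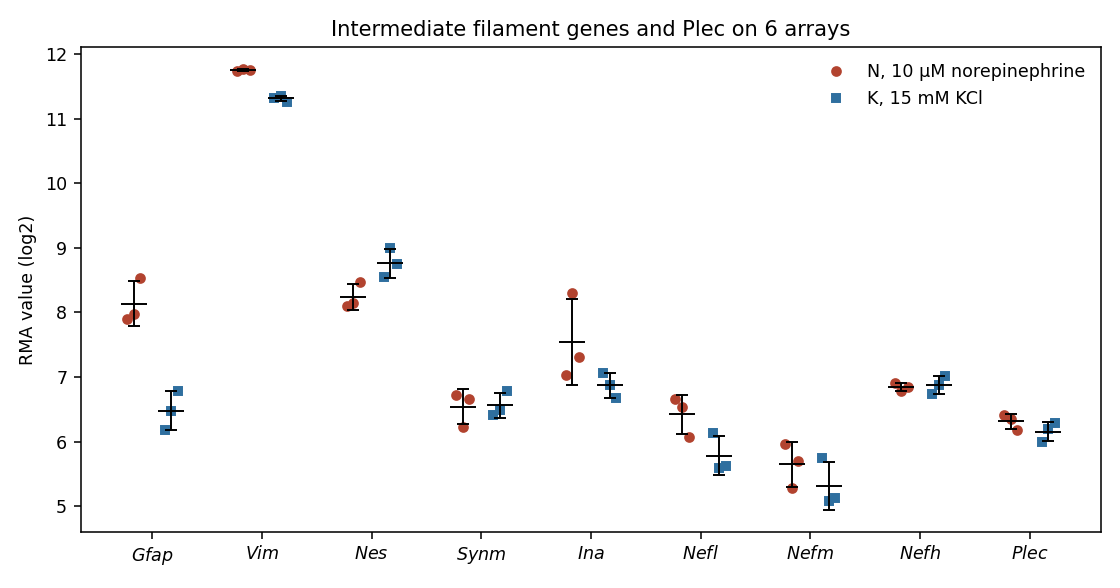
RMA values (log2, vertical axis) of the 9 genes on the N arrays (circles, n = 3) and K arrays (squares, n = 3), with bars for mean ± SD. The groups are apart for Gfap, Vim and Nes, and 1 N array of Ina stands at 8.30.

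The stretches of genome just before the starts of Gfap, Vim and Nes are shown here, since these are the genes whose groups did not overlap. They are the 250 bases before the annotated start, from RefSeq on GRCm38.p6, written 5′ to 3′ on the strand of the gene. Of the 9 genes 5 matched an entry (Gfap, Vim, Nes, Synm and Ina), and Nefl, Nefm, Nefh and Plec did not. Capitals mark matches to the searched motifs. Gfap lies at chr11:102897201-102897450 on the minus strand, Vim at chr2:13574061-13574310 on the plus strand and Nes at chr3:87970843-87971092 on the plus strand.
Gfap: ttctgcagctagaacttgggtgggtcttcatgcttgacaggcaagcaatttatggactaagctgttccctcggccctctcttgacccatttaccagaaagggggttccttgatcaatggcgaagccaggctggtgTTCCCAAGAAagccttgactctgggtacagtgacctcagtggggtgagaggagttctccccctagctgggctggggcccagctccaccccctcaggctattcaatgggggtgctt
Vim: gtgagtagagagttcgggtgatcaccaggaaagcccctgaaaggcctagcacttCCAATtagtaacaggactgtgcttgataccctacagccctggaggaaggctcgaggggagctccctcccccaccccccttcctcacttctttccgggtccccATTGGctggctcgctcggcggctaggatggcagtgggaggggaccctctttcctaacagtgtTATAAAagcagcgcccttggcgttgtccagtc
Nes: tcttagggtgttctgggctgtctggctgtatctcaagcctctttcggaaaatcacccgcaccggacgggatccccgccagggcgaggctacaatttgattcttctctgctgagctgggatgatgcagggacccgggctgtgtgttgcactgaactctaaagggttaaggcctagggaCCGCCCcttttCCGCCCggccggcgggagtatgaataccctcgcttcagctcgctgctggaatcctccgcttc

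Motifs were searched on both strands, and no match overlapped another in these windows. The Gfap window held 1 match, to a STAT spacing with 4 free bases between TTC at its left end and the letters GAA at its right end, from 115 to 106 bases before the start. That motif was found in 5.85% of all 32851 windows of this length. The Vim window held a TATA box (written TATAAA) from 32 to 27 bases before the start (12.4% of all windows) and 2 copies of the CCAAT box, at 196 and 94 bases (33.8% of all windows). The Nes window held 2 GC boxes (the letters GGGCGG, here on the opposite strand), at 73 and 62 bases before the start (32.7% of all windows), and none of the other motifs. Of the matched windows not printed, that of Synm held 1 copy of the CCAAT box, at 78 bases, and that of Ina held 2 GC boxes, at 111 and 12 bases. The full CREB site, spelled TGACGTCA, had no match in the 5 windows and stood in 1.55% of all windows. The AP-1 site, spelled TGACTCA, also had none and stood in 4.46%. The STAT spacing with 3 free bases, spelled TTCNNNGAA, had none and stood in 7.02%. These are matches of letters in short windows and describe the sequences only.

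Gfap had values of 7.90, 7.98 and 8.53 on the N arrays and 6.18, 6.47 and 6.79 on the K arrays. All N arrays were high, with N replicate 3 the highest, and the lowest N array lay 1.11 above the highest K array. Gfap was 3.16-fold higher with N than with K, a log2FC of 1.66 (95% confidence interval 1.18 to 2.14, standard error 0.21, n = 3 per group), with an adjusted p = 0.0358 over all genes in limma. Ordered by size among all 19937 genes, it was the 17th highest log2FC. On GRCm38.p6 the gene spans chromosome 11 from 102887336 to 102897200. In the fits with 1 array left out the log2FC stayed between 1.46 and 1.81, and Gfap did not pass in any of the 6 (adjusted p from 0.0611 to 0.145 in limma). With all 6 arrays it also missed the threshold after quantile normalization (adjusted p = 0.0516 in limma), cyclic loess normalization (0.0517) or centring of each array (0.0590), and in an ordinary linear model (0.486).

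Of 10 other astrocyte markers 9 had a positive log2FC (43.0% of all genes), 6 had all N arrays above all K arrays (5.78% of all genes), and 0 passed in limma over all genes. An unadjusted P under 0.05 with N higher was reached by 4 (4.64% of all genes). The mean of the 10 markers lay between 8.61 and 8.98 on the N arrays and between 8.33 and 8.50 on the K arrays. The largest value was that of the water channel gene Aqp4 with 1.56 (standard error 0.24, adjusted p = 0.0738 in limma). Next came Slc1a2, the gene of a glutamate transporter, with 0.87 (standard error 0.14, adjusted p = 0.0798 in limma). The glycolytic gene Aldoc followed with 0.55 (standard error 0.14, adjusted p = 0.267 in limma). The calcium-binding protein gene S100b had -0.47 (standard error 0.30). In RNA of whole neurospheres a change in the share of a cell type and a change in RNA per cell cannot be told apart, and the part of the astrocyte markers in the Gfap value was not tested.

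Vim had values of 11.74, 11.76 and 11.75 on the N arrays and 11.32, 11.35 and 11.26 on the K arrays. Every N array was high by nearly the same amount, 0.43 to 0.45 above the K mean, and the groups were 0.39 apart. Its log2FC was 0.44 (standard error 0.11, 95% confidence interval 0.19 to 0.69), a 1.36-fold difference that did not pass (adjusted p = 0.267 in limma). The log2FC depended on the normalization: it was 0.35 after quantile, 0.36 after cyclic loess and 0.47 with each array centred on its median. The replicates of Vim were close together: only 0.266% of all genes had a smaller SD within groups (0.033, pooled over both groups). limma draws such small spreads toward that of the other genes, and the standard error it used was 4.11 times that of an ordinary linear model. Ordered by the P of that ordinary model, Vim was the 5th gene of all 19937 and still did not pass after adjustment (adjusted p = 0.309 from the linear model, with 1 gene passing in all). The gene spans chromosome 2 from 13574311 to 13582826.

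Nes had values of 8.09, 8.14 and 8.47 on the N arrays and 8.54, 8.99 and 8.75 on the K arrays. The N arrays were low, but N replicate 3 lay only 0.07 below K replicate 1. The log2FC was -0.53 (standard error 0.16, 95% confidence interval -0.89 to -0.16), the only one of the 9 with an interval below 0, and it did not pass (adjusted p = 0.390 in limma). The gene spans chromosome 3 from 87971093 to 87980451. Other precursor genes gave values on both sides. Of 9 measured precursor markers 5 had a positive and 4 a negative log2FC, with a median of 0.001, and 0 passed in limma. Among them 1, Prom1, reached an unadjusted P under 0.05, as did 8.54% of all genes. Prom1, a membrane protein gene of stem cells, had 0.40 (standard error 0.11), the Notch target gene Hes1 -0.26 (standard error 0.17) and the transcription factor gene Sox2 0.25 (standard error 0.18). The mean of the 9 markers lay between 8.62 and 8.80 with N and between 8.62 and 8.74 with K, so the groups overlapped.

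**Figure D2:**
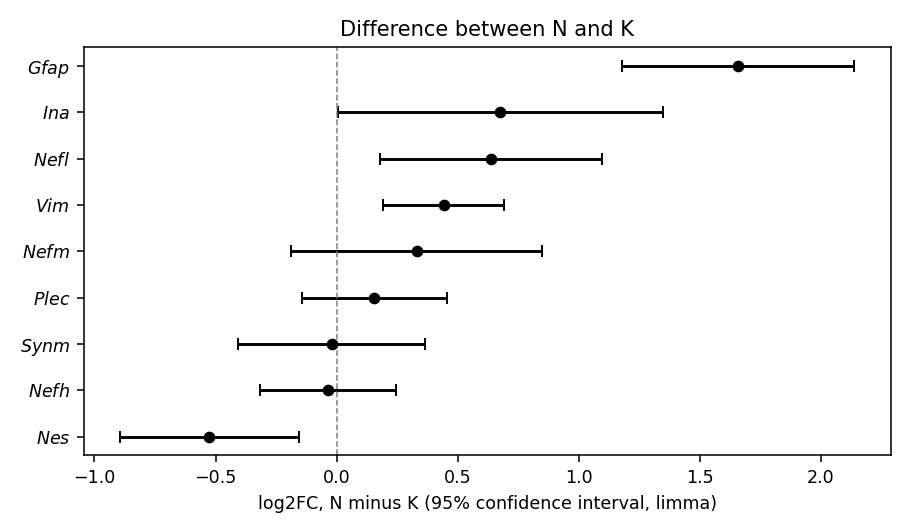
Log2FC of N minus K (horizontal axis) of the 9 genes, as points with 95% confidence intervals from limma. The interval of Gfap runs from 1.18 to 2.14 and that of Nes from -0.89 to -0.16, while those of Synm, Nefm, Nefh and Plec cross 0.

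Differences between genes within an array remove any shift that all genes of an array share. Only their change between groups can be read, since probes of different genes differ in brightness. Gfap minus Vim was -3.84, -3.78 and -3.22 on the N arrays and -5.14, -4.88 and -4.47 on the K arrays. All N arrays were higher, by 1.22 on average (SD 0.34 with N and 0.34 with K). Gfap minus Nes was -0.19, -0.16 and 0.06 on the N arrays and -2.36, -2.52 and -1.96 on the K arrays, a mean difference of 2.18 (SD 0.14 with N and 0.29 with K). The exact two-sided permutation test gave p = 0.10 for both, the smallest that 3 arrays against 3 allow, so this design cannot reach 0.05. The groups did not overlap in either difference, which the values of the single genes had already fixed. Gfap was higher and Nes lower on all N arrays, and the Gfap gap of 1.11 was larger than any difference of Vim between arrays. The separation and the p thus restate those values, and no share over other pairs of genes was computed.

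**Figure D3:**
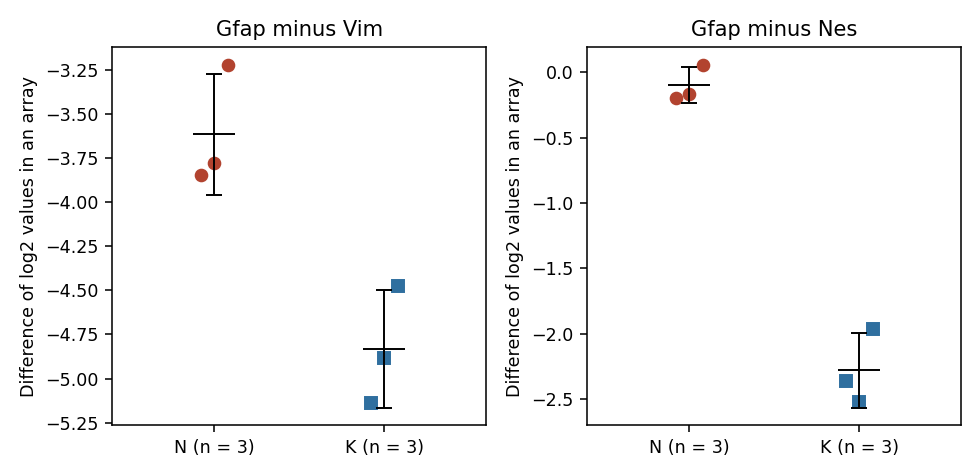
Gfap minus Vim and Gfap minus Nes (difference of log2 values in an array, vertical axes) on the N arrays (circles, n = 3) and K arrays (squares, n = 3), with bars for mean ± SD. The N arrays lie above the K arrays in both, by 1.22 and 2.18 on average.

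Nefl, which encodes the light neurofilament subunit that the other subunits assemble with, had values of 6.65, 6.54 and 6.07 on the N arrays and 6.13, 5.59 and 5.63 on the K arrays. The groups overlapped, since N replicate 3 (6.07) lay below K replicate 1 (6.13). The log2FC was 0.64 (standard error 0.20, 95% confidence interval 0.18 to 1.10, adjusted p = 0.398 in limma). Nefm, the gene of the medium subunit, lies 30449 bases from Nefl on chromosome 14. It had values of 5.97, 5.28 and 5.70 on the N arrays and 5.74, 5.09 and 5.12 on the K arrays, and a log2FC of 0.33 (standard error 0.23, adjusted p = 0.761 in limma). K replicate 1 was the high K array for both, 0.52 above the mean of the other K arrays for Nefl and 0.64 above it for Nefm. Both genes had means under 6.34, the median over all clusters, and so are dim on these arrays.

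Nefh, the gene of the heavy subunit, had values of 6.90, 6.78 and 6.84 on the N arrays and 6.74, 6.87 and 7.02 on the K arrays, a narrow range in which the groups overlapped fully. The log2FC was -0.04 (standard error 0.12, 95% confidence interval -0.32 to 0.25, adjusted p = 0.959 in limma). The difference between Nefl and Nefh was not tested. Nefl lies on chromosome 14 from 68083863 to 68089095, Nefm on chromosome 14 from 68119545 to 68125004 and Nefh on chromosome 11 from 4938754 to 4948064.

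Ina had values of 7.03, 8.30 and 7.31 on the N arrays and 7.06, 6.87 and 6.68 on the K arrays. One array, N replicate 2, was high, and the lowest N array lay within the range of the K arrays. The log2FC was 0.68 (standard error 0.29, 95% confidence interval 0.01 to 1.35, adjusted p = 0.582 in limma), and without N replicate 2 it was 0.30. These values come from the brighter of 2 clusters named for Ina, whose annotation does not list the RefSeq transcript. The cluster that lists it had values of 5.83, 6.19 and 6.36 with N and 5.83, 5.94 and 6.10 with K, with means 0.17 apart, so the 2 clusters differed in size of change, and N replicate 2 was not the highest N array there. The gene spans chromosome 19 from 47014681 to 47025327.

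Other neuronal markers gave values on both sides. Of 10 other neuronal markers 4 had a positive log2FC (43.0% of all genes) and 6 a negative one, and 0 passed in limma. An unadjusted P under 0.05 was reached by 3 (8.54% of all genes), 2 with N higher and 1 with K higher. All N arrays lay above all K arrays for 3 (5.78% of all genes) and below them for 1 (7.55%). The mean of the 10 markers lay between 6.66 and 6.83 with N and between 6.59 and 6.81 with K. The synaptic gene Snap25 had 0.81 (standard error 0.21) and, like Nefl and Nefm, its highest K value on K replicate 1 (6.92 against 6.12 and 6.23). The neuronal tubulin gene Tubb3 had 0.47 (standard error 0.16), the microtubule-associated protein gene Map2 -0.32 (standard error 0.11) and Dcx -0.07 (standard error 0.12). The part of neuronal RNA in the values of Nefl, Nefm and Ina was not tested.

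Synm, whose protein cannot build filaments alone and joins those of Vim, Gfap or Des, had values of 6.73, 6.23 and 6.67 on the N arrays and 6.42, 6.49 and 6.78 on the K arrays. The groups overlapped, with N replicate 2 the lowest and K replicate 3 the highest of the 6 arrays, and gave a log2FC of -0.02 (standard error 0.17, 95% confidence interval -0.41 to 0.37). Plec, which encodes the large linker protein plectin, had values of 6.41, 6.35 and 6.19 on the N arrays and 5.99, 6.20 and 6.28 on the K arrays. Its log2FC was 0.16 (standard error 0.13, 95% confidence interval -0.14 to 0.45). Neither passed in limma (adjusted p = 0.984 for Synm and 0.807 for Plec). Synm spans chromosome 7 from 67730161 to 67759742 and Plec chromosome 15 from 76170974 to 76231378.

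Ordered by log2FC, the 9 genes ran Gfap (1.66), Ina (0.68), Nefl (0.64), Vim (0.44), Nefm (0.33), Plec (0.16), Synm (-0.02), Nefh (-0.04) and Nes (-0.53). The intervals of neighbours in this order overlapped throughout, those of Gfap and Ina only between 1.18 and 1.35. The Gfap interval lay wholly above those of the 7 genes other than Ina.

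Further intermediate filament genes had small log2FC in either direction. Of 15 genes for other filament proteins 0 passed in limma and 0 reached an unadjusted P under 0.05, with 5 positive and 10 negative log2FC between -0.26 and 0.19 and a median of -0.02. They included the muscle filament gene Des (-0.0042), the peripheral neuron filament gene Prph (0.19), the keratin genes Krt5 (-0.26) and Krt8 (0.16) and the nuclear lamin gene Lmnb1 (0.04). Among 8 measured genes for linkers and chaperones of filaments 0 passed in limma. Of these 1, Cryab, reached an unadjusted P under 0.05, as did 8.54% of all genes. Cryab encodes a small heat shock protein that binds Gfap filaments. It had values of 9.37, 9.19 and 9.77 on the N arrays and 8.68, 9.10 and 8.33 on the K arrays, and a log2FC of 0.74 (standard error 0.22, adjusted p = 0.369 in limma). The N arrays were all high, N replicate 2 by only a little over K replicate 2. The related chaperone gene Hspb1 had 0.20 (standard error 0.16) and the linker gene Dst, a relative of Plec, -0.18 (standard error 0.13).

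Genes known to act on Gfap transcription gave values on both sides. Of 12 such genes 6 had a positive and 6 a negative log2FC, with a median of -0.03, and 0 passed in limma. Among them 1, Id3, reached an unadjusted P under 0.05, as did 8.54% of all genes. The STAT gene Stat3 had -0.21 (standard error 0.11), the cytokine receptor gene Lifr -0.37 (standard error 0.17) and Id3, a target of BMP signalling, 0.26 (standard error 0.11). Of 11 genes known from reactive astrocytes, in which Gfap and Vim are also high, 0 passed in limma, 3 reached an unadjusted P under 0.05 with N higher (4.64% of all genes) and 7 had a positive log2FC (43.0% of all genes). The 3 were the oncostatin M receptor gene Osmr with 1.25 (standard error 0.40), the sphingosine-1-phosphate receptor gene S1pr3 with 1.00 (standard error 0.22) and the protease inhibitor gene Timp1 with 0.95 (standard error 0.25). The other 8 reactive genes had log2FC from -0.11 for Lcn2 (standard error 0.14) to 0.53 for Cxcl10 (standard error 0.28), with Serpina3n next highest at 0.22 (standard error 0.25).

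**Figure D4:**
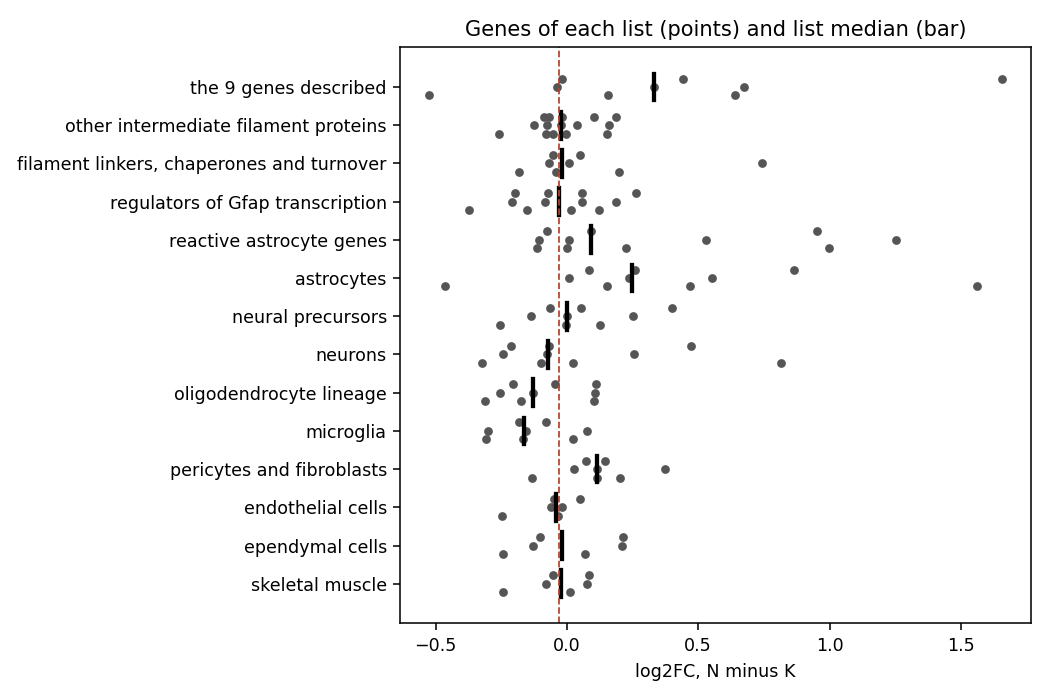
Log2FC of N minus K (horizontal axis) of each measured gene of 14 lists (points). Black bars mark list medians, with a dashed line at the median of all genes tested, -0.03. The medians of the 9 genes and of the astrocyte markers, 0.33 and 0.25, lie farthest to the right.

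Markers of other cells that neurospheres could hold gave 0 passing genes in limma. Of 8 pericyte and fibroblast markers, cells that also make Vim, 7 had a positive log2FC (43.0% of all genes), with a median of 0.12. Only 1, Kcnj8, reached an unadjusted P under 0.05 (8.54% of all genes). It had a log2FC of 0.37 (standard error 0.14), with all N arrays above all K arrays (5.78% of all genes). The mean of the 8 markers lay between 6.25 and 6.29 with N and between 6.11 and 6.25 with K. The smooth muscle actin gene Acta2 had 0.20 (standard error 0.19), the matrix gene Dcn 0.15 (standard error 0.12) and the collagen gene Col1a1 0.03 (standard error 0.13). Medians were -0.02 for 6 ependymal markers, -0.04 for 6 endothelial markers, -0.13 for 9 oligodendrocyte lineage markers, -0.16 for 8 microglial markers and -0.02 for 6 skeletal muscle markers, with 0 of these genes at an unadjusted P under 0.05. Among ependymal markers Pifo had a log2FC of -0.24, Ccdc153 0.21, Dynlrb2 0.21 and Foxj1 0.07. Among endothelial markers 1 had a positive log2FC, 0.05, and 5 a negative one, with Tek at -0.25, Cdh5 -0.06, Pecam1 -0.05 and Cldn5 -0.02. In the oligodendrocyte lineage Cspg4 had -0.31, Olig1 -0.25 and Olig2 -0.20, and among microglial markers Itgam had -0.31, C1qb -0.30 and Cx3cr1 -0.18. Among muscle markers Ckm had -0.24, Tnnt3 0.08, Tnni2 -0.08 and Acta1 0.01. The part of these cells in the values of Vim was not tested.

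The genes most like Gfap were found by the root mean square distance between log2 values over the 6 arrays, after subtracting the mean of each gene. They were Efemp1 (distance 0.117), Aqp4 (0.190), Clu (0.225), Car10 (0.257) and Prss35 (0.272), against a root mean square of 0.870 for Gfap around its own mean. Efemp1, an extracellular matrix protein gene, had values of 8.07, 8.20 and 8.65 on the N arrays and 6.57, 6.83 and 6.86 on the K arrays, so it shared with Gfap the high N replicate 3 and the low K replicate 1. Clu encodes a secreted chaperone and Car10 a carbonic anhydrase-related protein, and the 5 genes had log2FC between 1.46 and 1.83. The genes most like Nes, the member with the lowest log2FC, were Gpr171 (0.0481), Slc7a5 (0.0727), Mmp16 (0.0800), Pola2 (0.0908) and Gna12 (0.0969), against 0.316 for Nes around its own mean. Slc7a5 encodes an amino acid transporter, Mmp16 a membrane-bound metalloproteinase and Pola2 a DNA polymerase subunit. Their log2FC lay between -0.50 and -0.37, and K replicate 2 was the highest array for all 5, as for Nes. These genes were chosen for their pattern over these arrays, so their values are a description with no test.

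**Figure D5:**
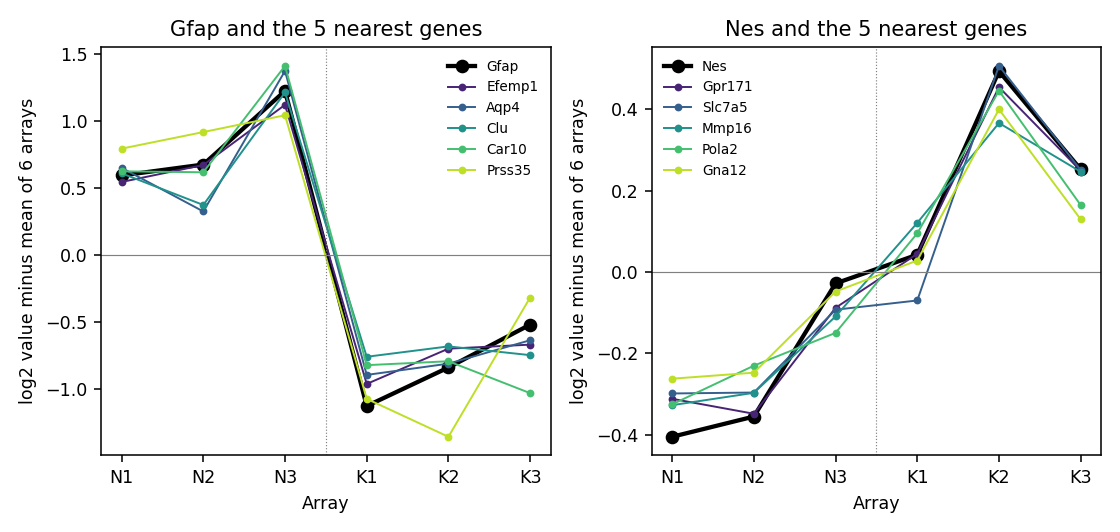
Log2 values minus the mean of the 6 arrays (vertical axis) on each array (horizontal axis) for Gfap and Nes (thick lines) and the 5 genes nearest to each (thin lines). Lines join the values of 1 gene and imply no order of the arrays. Efemp1 is the nearest to Gfap (distance 0.117) and Gpr171 the nearest to Nes (0.0481).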

How the data were processed

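Total RNA was amplified with the Applause WT-Amp ST kit, labelled with the Encore Biotin module and hybridised to Affymetrix Mouse Gene 1.0 ST arrays, 1 per biological replicate and 3 per group. The authors deposited log2 values made with RMA in Partek Genomics Suite, and versions are not given in the sources used here. RMA corrects background and normalizes arrays to each other, which takes out much of any shift that most genes share. Array medians in the deposited log2 values still spanned 6.30 to 6.40. Clusters were named by the array annotation. Of 34760 clusters 21640 carried exactly 1 symbol and 19937 genes remained. Symbols of the 9 genes were matched to RefSeq (GRCm38.p6) by gene ID.

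The difference N minus K was fitted over all genes by lmFit and eBayes (limma 3.58.1, R 4.3.3) on 4 residual and 4.59 prior degrees of freedom, with Benjamini-Hochberg adjustment and a threshold of 0.05, after tests on simulated data. All 9 genes are named, with the members of each list that passed or had the 3 largest log2FC in size, a fixed set of cell type markers and the 5 genes nearest in pattern to the highest and lowest member. Genes outside that rule (S100b, Des, Lmnb1, Lcn2, Serpina3n and Cxcl10) were chosen after their values were seen. The members, the lists and the tests were chosen with earlier results of these data known, and the motifs after the promoters were read. Alternatives were the replicate number as a block, an ordinary linear model, eBayes with trend and robust, a filter on dim clusters, 3 further normalizations, other rules for clusters, each array left out and the positive rule of the methods (log2FC over 1 in size and P under 0.05). Figures were drawn with matplotlib 3.10.9.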

Additional observations from a re-analysis of the deposited data

How the results depend on the processing

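Over all genes, 31 passed in limma (24 higher with N). The count was 1 in an ordinary linear model (1402 at an unadjusted P under 0.05), 12 after quantile normalization (7 higher with N), 12 after cyclic loess normalization (8 higher with N), 3 after centring arrays on their medians (2 higher with N) and 98 by the positive rule. With 1 array left out in limma the count ran from 0 to 21 genes: leaving out N replicate 1 gave 0 (1251 at an unadjusted P under 0.05), as did N replicate 2 (1274) and K replicate 1 (1334), while leaving out N replicate 3 gave 4, K replicate 3 gave 9 and K replicate 2 gave 21. Of the 9 genes 1, Gfap, passed, and 0 did in the ordinary linear model (3 at an unadjusted P under 0.05), after quantile or cyclic loess normalization (4 each) or with arrays centred (5). With 1 array left out the count was 0 in each of the 6 fits (4 to 5 at an unadjusted P under 0.05). The Gfap log2FC lay between 1.64 and 1.69 in the 9 alternatives with all arrays, with adjusted p from 0.00887 to 0.486, of which 5 passed. The adjusted p of Gfap was 0.0516 after quantile normalization, 0.0517 after cyclic loess normalization and 0.0590 with arrays centred.

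Direction changed only for 2 genes near 0. Synm turned to 0.012 after cyclic loess normalization and 0.0063 with arrays centred, and ran from -0.11 to 0.13 with 1 array left out (positive without N replicate 2, and 0.09 with K replicate 3 dropped). Nefh ran from -0.105 (K replicate 1 dropped) to 0.035 (K replicate 3 dropped). Among genes that did not pass, leaving out 1 array moved the log2FC of Nefm between 0.17 (N replicate 1) and 0.54 (K replicate 1), that of Ina between 0.30 (N replicate 2) and 0.93 (N replicate 1) and that of Plec between 0.07 (K replicate 1) and 0.22 (N replicate 3). Gfap minus Vim lay between 1.02 and 1.40 and Gfap minus Nes between 2.06 and 2.34 with 1 array left out.

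With the replicate number as a replicate block 41 genes passed, and of the 9 genes again 1, Gfap (adjusted p = 0.00887). Deviations of same-numbered N and K arrays from their group means correlated weakly (r = 0.0434, 0.0429 and 0.121). N replicates 2 and 3 correlated best with the K array of the same number, and N replicate 1 with K replicate 2 (r = 0.113). All these r were small, so the numbers are not known to pair the arrays. Precision rests on 3 arrays a group, and Nefl, Nefm and Plec had means below the median over all clusters.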
